A study of Mus musculus with 14 samples.

Results

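Genes that encode transcription factors of the mouse oocyte were followed in RNA sequencing of oocytes with and without the mitochondrial fission factor gene Mff. The genes, 8 in number and taken by gene symbol, were Sohlh1, Sohlh2, Nobox, Lhx8, Foxo3, Tbpl2, Taf4b and Pou5f1, and each had a row in both deposited count tables, among 16196 genes listed in both and 18507 in either. All mice carried floxed Mff alleles (Mff fl/fl). The WT label stands for Mff fl/fl without Cre, and CKO for Mff fl/fl; Gdf9-Cre, in which the promoter of the oocyte growth factor gene Gdf9 drives Cre recombinase. Oocytes were taken at the germinal vesicle (GV) stage, before meiosis resumes, or after ovulation. Each genotype had 4 libraries at the GV stage and 3 after ovulation, prepared with SMART-SeqII and PCR preamplification. The labels give neither ages nor strains, which part of Mff was deleted, or how many oocytes or mice went into a library. The p-values therefore describe only the spread between libraries, which may be partly technical.

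As background, these factors act at successive steps of an oocyte's life. SOHLH1 and SOHLH2 are basic helix-loop-helix proteins of germ cells and primordial follicles, and the homeobox proteins LHX8 and NOBOX act with them to switch on genes of the growing oocyte, such as those of the zona pellucida. FOXO3 keeps primordial follicles dormant until PI3K-AKT signalling exports it from the nucleus, TBPL2 takes the place of the TATA-binding protein TBP during oocyte growth, TAF4B is a germ-cell subunit of the general factor TFIID, and POU5F1 (OCT4) is stored in the oocyte and is needed in the early embryo. Fully grown and ovulated oocytes transcribe little, so that their messages are largely stored RNA.

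The targeted gene followed the labels in every library. Mff measured 477 to 945 CPM (counts scaled to a common library size, with TMM factors over the 14 libraries) in GV WT and 30.1 to 47.2 CPM in GV CKO, and 304 to 687 CPM in ovulated WT and 31.3 to 54.4 CPM in ovulated CKO. Library totals lay between 26575593 and 28847424 counts. All 12 oocyte markers checked, among them Gdf9, Zp3 and Ddx4, were detected in each group and summed to 15678 to 30899 CPM of library totals per library. The summed level of 23 granulosa and cumulus markers was 139 to 325 CPM, with overlap between the stages. Of these, 21 were listed in GV and 17 in ovulated oocytes. Blood, immune, endothelial and stromal markers summed to 24.0 to 46.4 CPM in GV libraries, where 16 of 16 were listed. In ovulated libraries, where 10 were listed, they summed to 55.6 to 139 CPM, without overlap with GV. Most averaged under 1 CPM (14 in GV WT, 12 in GV CKO, 7 in each ovulated group), so the sums rest on few genes. Of all tested genes, 68.7% in WT and 52.4% in CKO did not overlap between stages. The part of these sums in the stage differences below was not tested. In 3 GV libraries (WT replicate 2, CKO replicates 1 and 2) the 100 most abundant genes held 35.2% to 42.4% of counts, against 48.2% to 51.1% in the other 5. In the ovulated libraries they held 25.0% to 35.4%.

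Levels of different genes can be set side by side only per transcript length, for which the deposited FPKM (fragments scaled to transcript length and library size) were used. In GV WT oocytes Nobox led at 349 ± 55.3 FPKM (SD, n = 4) and ranked 261 among the 18194 genes listed. Lhx8 came next at 65.4 ± 16.1 FPKM, Foxo3 at 16.9 ± 9.71, Pou5f1 at 12.5 ± 5.40, Tbpl2 at 6.22 ± 3.34, Sohlh2 at 4.59 ± 1.78 and Taf4b at 1.28 ± 0.901 FPKM (SD, n = 4 each). The ranges over libraries did not overlap between Nobox and Lhx8, Lhx8 and Foxo3, or Sohlh2 and Taf4b, while neighbours from Foxo3 down to Sohlh2 overlapped. GV CKO oocytes had the same order of means.

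After ovulation the order was different. In ovulated WT oocytes Foxo3 led at 86.5 ± 28.0 FPKM, rank 991 of 16509 genes, and Nobox followed at 33.2 ± 8.11 FPKM, rank 2146 (SD, n = 3 each), with no overlap between them. Tbpl2 (11.6 FPKM), Lhx8 (10.1 FPKM), Pou5f1 (9.37 FPKM), Sohlh2 (8.80 FPKM) and Taf4b (6.44 FPKM) followed, and each overlapped its neighbour in range. In ovulated CKO oocytes Foxo3 stood at 80.9 ± 9.37, Nobox at 57.2 ± 29.2 and Lhx8 at 40.6 ± 23.0 FPKM (SD, n = 3 each), with overlapping ranges between neighbours, and Lhx8 did not overlap Taf4b at 8.47 ± 1.66 FPKM. By median, Pou5f1 stood above Foxo3 in GV WT, 13.9 against 12.9 FPKM, within their overlap.

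**Figure D1:**
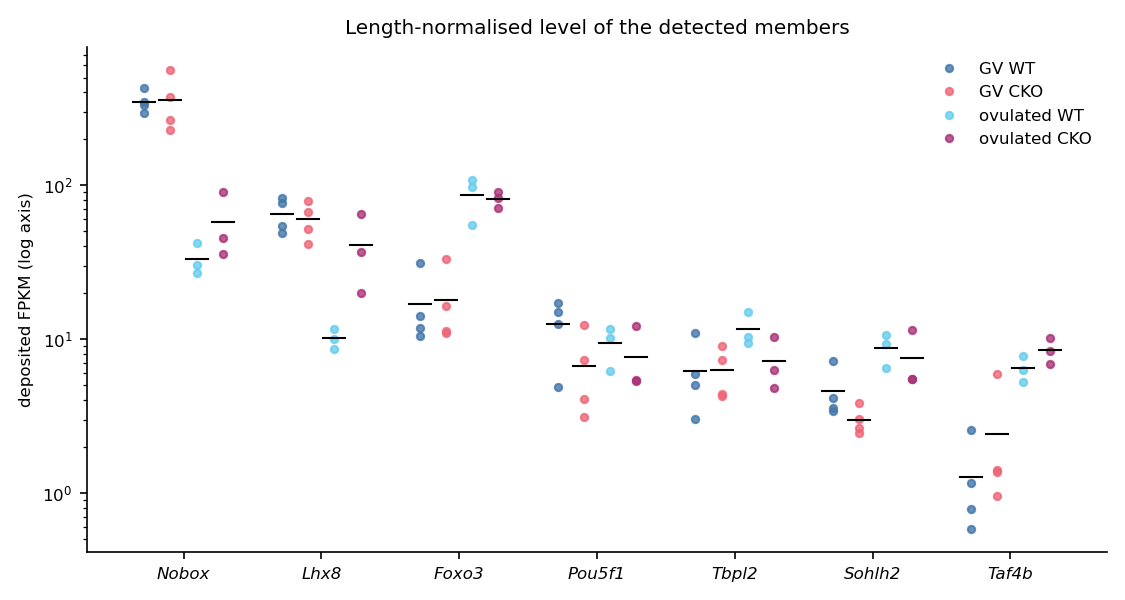
Deposited FPKM on a log axis for the 7 members with more than a trace of reads. Points are libraries, coloured by group, 4 libraries in each GV group and 3 in each ovulated group, and black bars are group means. Nobox stands highest in both GV groups, and Foxo3 has the highest mean in both ovulated groups.

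Between the stages, Nobox and Lhx8 fell and Foxo3 and Taf4b rose in oocytes of both genotypes. The GV and ovulated libraries were deposited separately, and the labels do not say whether they were prepared or sequenced together. A stage difference therefore cannot be told apart from a difference in preparation or run. Counts were compared with edgeR's quasi-likelihood test, and genes with a Benjamini-Hochberg adjusted p under 0.05 over all tested genes were called. From GV to ovulated in WT, 4 of the 7 tested members were called, 2 higher and 2 lower, where 66.4% of all 13199 tested genes were called, 30.3% higher and 36.2% lower, so the members' share was near the background. The groups of 4 of the 7 did not overlap in WT, against 68.7% of all genes, and 69.5% of all genes had an unadjusted p under 0.05. In CKO the same 4 members were called and did not overlap, where 54.4% of all genes were called, 23.2% higher and 31.2% lower, 52.4% did not overlap and 59.8% had an unadjusted p under 0.05. The median log2 fold change over the 7 members was 0.57 in WT and -0.26 in CKO, and over all tested genes it was -0.17 and -0.19. Normalising by library totals alone moved the median over all genes to 0.24 in WT and 0.33 in CKO. The values are relative to the rest of a library's RNA, and in such bulk libraries a smaller number of cells and less RNA per cell cannot be told apart.

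Between the genotypes, only Lhx8 among the members passed the test, in ovulated oocytes. In GV oocytes 0 of the 7 tested members were called by edgeR, where 0.0163% of 12298 genes were called (2 genes, 0.00813% in each direction) and 6.67% had an unadjusted p under 0.05. The genotypes overlapped for 7 of 7 members, and 4.58% of all genes did not overlap. Of the members, only Sohlh2 was below 0.05 before adjustment (adjusted p = 0.744 with edgeR). DESeq2, which called 55 genes in GV oocytes, and limma's voomWithQualityWeights, which called 114, also called 0 of the members. In ovulated oocytes 1 of 7 was called, where 7.84% of 12010 genes were called, 6.44% higher and 1.4% lower in CKO, and 23.3% had an unadjusted p under 0.05. In the test of the difference between the stages in the CKO effect, 1 of 7 was called, where 3.26% of 13199 genes were called, 3.17% with a larger and 0.0833% with a smaller value in ovulated oocytes, and 15.5% had an unadjusted p under 0.05.

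**Figure D2:**
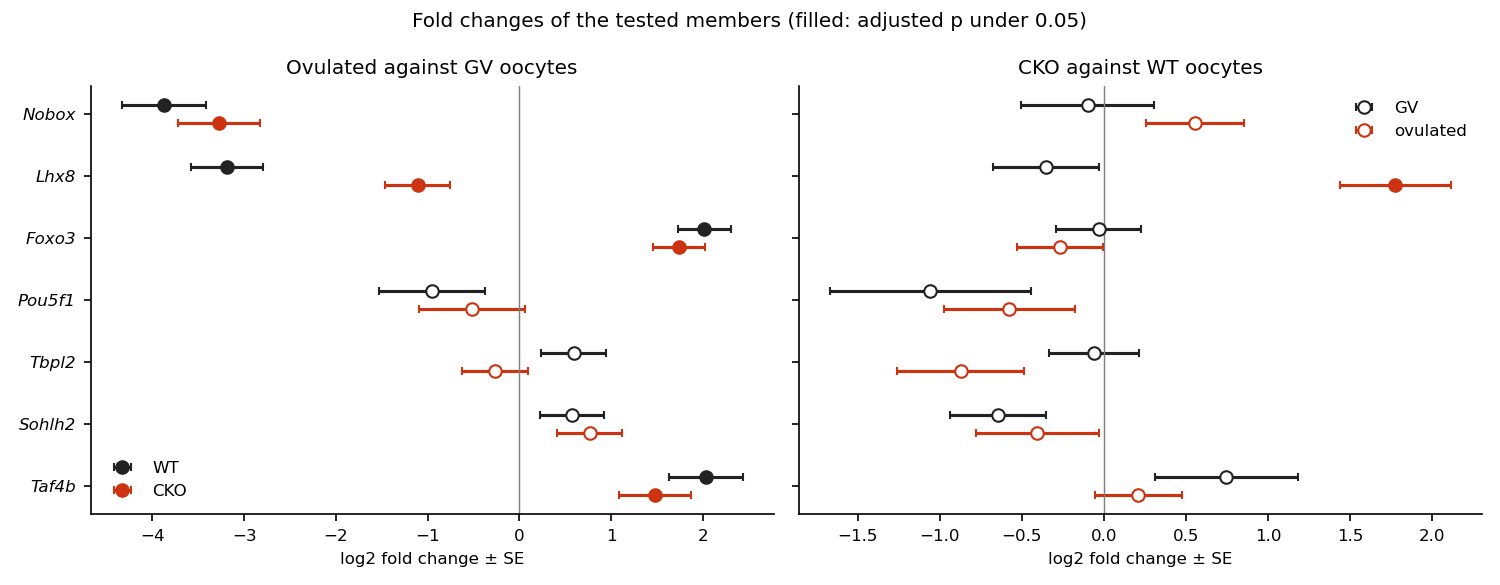
Log2 fold changes with their standard errors for the 7 tested members. The left panel shows ovulated against GV oocytes in WT (black) and CKO (red), and the right panel shows CKO against WT in GV (black) and ovulated (red) oocytes. Filled points have an adjusted p under 0.05: Nobox, Lhx8, Foxo3 and Taf4b between stages, and Lhx8 alone between genotypes, at 1.77 in ovulated oocytes.

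Sohlh1 (Entrez gene 227631, chromosome 2, 25842995 to 25847248 in GRCm38.p6), which opens the oocyte programme in germ cell nests and primordial follicles, was at the limit of detection. The GV WT libraries held 0, 1, 1 and 0 reads, the GV CKO libraries 4, 0, 2 and 3, the ovulated WT libraries 0 each and the ovulated CKO libraries 0, 0 and 1. A library with 0 reads allows a level of up to 0.0762 to 0.153 CPM, depending on the library, the worth of 3 reads on the same TMM scale, and this covers counting error only. Sohlh1 did not pass the filter on low counts and was not tested.

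Sohlh2 (Entrez gene 74434, chromosome 3, 55182044 to 55209957), its partner in binding DNA, was present at a low level throughout. It measured 12.5, 12.9, 8.85 and 10.7 CPM in GV WT and 4.15, 6.29, 10.8 and 7.98 CPM in GV CKO. After ovulation it measured 19.3, 12.2 and 18.7 CPM in WT and 19.6, 7.99 and 9.58 CPM in CKO. The groups overlapped, although 3 of the 4 GV CKO libraries lay below every GV WT library. The log2 fold change of CKO against WT was -0.64 (SE 0.29) in GV oocytes and -0.41 (SE 0.37, adjusted p = 0.564 with edgeR) in ovulated oocytes. From GV to ovulated it was 0.57 (SE 0.35, adjusted p = 0.156 with edgeR) in WT and 0.77 (SE 0.35, adjusted p = 0.0728) in CKO. The stage call of Sohlh2 depended on the processing. The CKO difference passed in 9 of 17 alternatives, among them DESeq2 (0.89, adjusted p = 0.0355), library totals alone (1.34, adjusted p = 0.00661 with edgeR) and the length trend removed (1.34, adjusted p = 0.00282), and the WT difference in 4 of 17, among them library totals (0.96, adjusted p = 0.0300).

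Nobox (Entrez gene 18291, chromosome 6, 43303674 to 43310072) encodes the oocyte homeobox protein on which many genes of the growing oocyte depend. It measured 824, 414, 678 and 998 CPM in GV WT and 351, 421, 824 and 1159 CPM in GV CKO. In ovulated oocytes the level was 60.9, 45.2 and 42.7 CPM in WT and 48.3, 103 and 61.8 CPM in CKO. Every ovulated library lay below every GV library of either genotype, and the genotypes overlapped at both stages. It fell by 3.88 on the log2 scale in WT (SE 0.46, adjusted p = 1.31e-06 with edgeR) and by 3.28 in CKO (SE 0.44, adjusted p = 1.26e-05). The difference between CKO and WT was -0.10 (SE 0.41, adjusted p = 0.948) in GV oocytes and 0.55 (SE 0.30, adjusted p = 0.282) in ovulated oocytes.

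Lhx8 (Entrez gene 16875, chromosome 3, 154306288 to 154330560) encodes a LIM-homeobox protein that acts with SOHLH1 and NOBOX in the early follicle. It measured 191, 80.3, 104 and 202 CPM in GV WT and 109.7, 80.5, 120.5 and 146 CPM in GV CKO, and these groups overlapped. After ovulation it measured 15.2, 18.1 and 14.3 CPM in WT and 28.1, 78.3 and 52.2 CPM in CKO. The lowest ovulated CKO library lay above the highest ovulated WT library, and CKO replicate 2 was the highest of the 6. From GV to ovulated Lhx8 fell by 3.19 on the log2 scale in WT (SE 0.39, adjusted p = 2.12e-06 with edgeR) and fell by 1.11 in CKO (SE 0.36, adjusted p = 0.0141). The smaller of these changes did not pass when library totals alone were used (-0.54, adjusted p = 0.212), with a trend on gene length removed (-0.34, adjusted p = 0.353), with the share of the top 100 genes as a covariate (-0.71, adjusted p = 0.392) or without ovulated CKO replicate 1 (-0.81, adjusted p = 0.0769).

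Between genotypes, Lhx8 rose by 1.77 on the log2 scale in ovulated CKO oocytes (SE 0.34, adjusted p = 0.00508 with edgeR). As a yardstick, 28.5% of the genes tested there had groups that did not overlap, and 845 of 12010 genes had a fold at least as large in either direction. In GV oocytes the difference was -0.36 (SE 0.32, adjusted p = 0.796). The CKO effect in ovulated oocytes exceeded that in GV oocytes by 2.08 (SE 0.50, adjusted p = 0.0289), and 419 of the 430 genes called in that test had the same sign.

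The ovulated Lhx8 call was kept when any 1 library was left out (adjusted p at most 0.0355). It was lost without ovulated WT replicate 3 and CKO replicate 2, the libraries farthest out on the first principal component (1.33, adjusted p = 0.0824), and with the share of the top 100 genes as a covariate (1.37, adjusted p = 0.118). It was also lost with limma on unfiltered log2(FPKM + 0.1) (1.84, adjusted p = 0.0718). That share was 29.5% to 35.4% in ovulated WT and 25.0% to 30.5% in ovulated CKO, and it was lowest in CKO replicate 2, where Lhx8 was highest. The difference between stages in the CKO effect was less firm: its adjusted p passed 0.05 when GV WT replicate 1 (0.0621) or 4 (0.0664), GV CKO replicate 2 (0.0597), ovulated WT replicate 1 (0.0679), 2 (0.0543) or 3 (0.0636), or ovulated CKO replicate 2 (1.68, adjusted p = 0.122) was left out, and it was 0.189 without ovulated WT replicate 3 and CKO replicate 2 together.

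Summed markers of other cells were also set side by side between the ovulated groups. Granulosa and cumulus markers, of which 17 of 23 were listed in ovulated oocytes, summed to 172 to 197 CPM in WT, where Ptx3 was at 0, and to 139 to 171 CPM in CKO, where Inhbb, Tnfaip6 and Gja1 were at 0. Blood, immune, endothelial and stromal markers, of which 10 of 16 were listed, summed to 83.8 to 139 CPM in WT and 55.6 to 104 CPM in CKO, where Hba-a1 and Hbb-bt were at 0. Of the 17 listed, 11 in WT and 10 in CKO averaged under 1 CPM, as did 7 of the 10 in each group, so the sums rest on few genes. The first sum did not overlap between the genotypes and was lower in CKO, where 28.5% of all tested genes did not overlap. The second sum overlapped. The part of both sums in the Lhx8 difference was not tested.

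**Figure D3:**
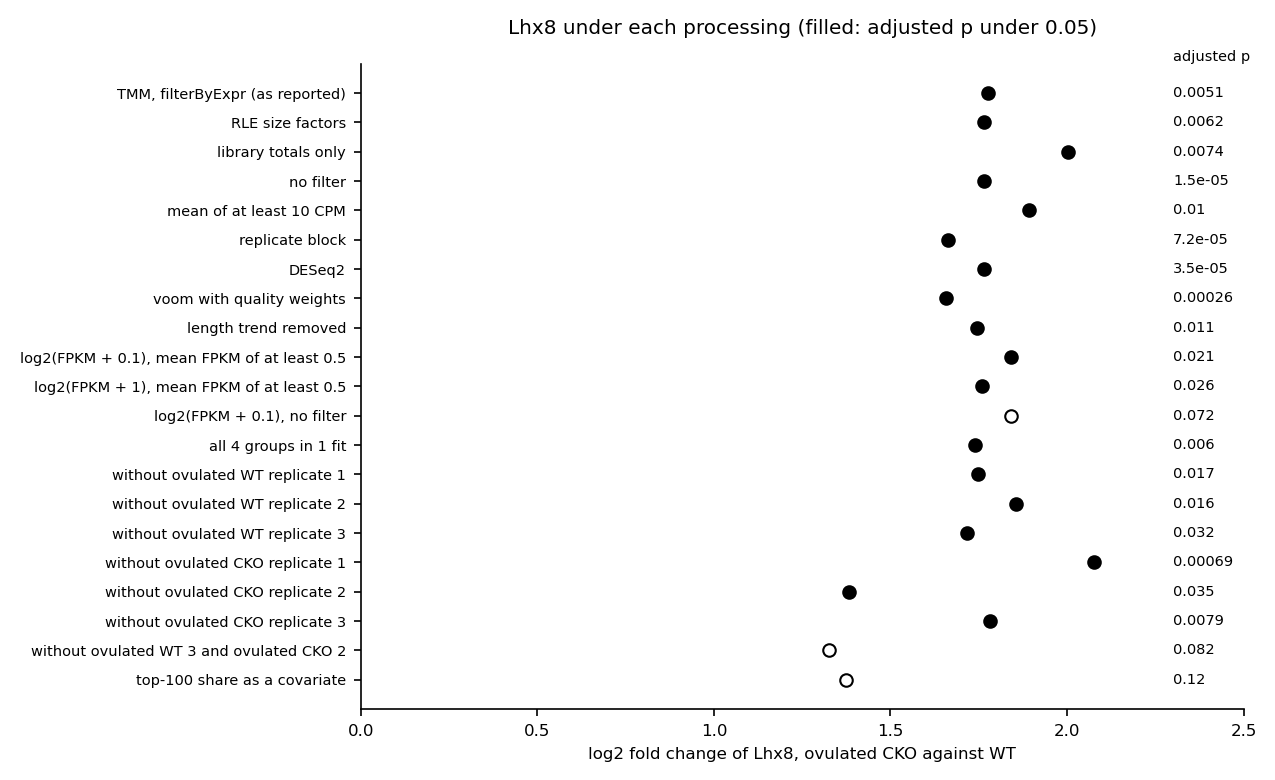
Log2 fold change of Lhx8 in ovulated CKO against WT oocytes under each processing choice, with the adjusted p at the right. Filled points have an adjusted p under 0.05. The fold stays between 1.33 and 2.08, and 3 of the 20 alternatives lose the call.

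Nobox and Lhx8 fell together from GV to ovulated. The sequence at the start site listed for each is shown because SOHLH1 and SOHLH2 bind E-boxes. The RefSeq promoter table for GRCm38.p6 had entries for 7 of the 8 genes. Each sequence runs from 250 bases before to 50 bases after the start, on the minus strand, with E-boxes (CANNTG, which reads the same on both strands) in capitals. Nobox lies at chr6:43309505-43309804 and holds 2 E-boxes, and Lhx8 lies at chr3:154330511-154330810 and holds 0. The Nobox window lies inside the span of its gene, which reaches 43310072, so it is not at the outer 5′ end. The Lhx8 window covers the 5′ end of its gene at 154330560.
Nobox: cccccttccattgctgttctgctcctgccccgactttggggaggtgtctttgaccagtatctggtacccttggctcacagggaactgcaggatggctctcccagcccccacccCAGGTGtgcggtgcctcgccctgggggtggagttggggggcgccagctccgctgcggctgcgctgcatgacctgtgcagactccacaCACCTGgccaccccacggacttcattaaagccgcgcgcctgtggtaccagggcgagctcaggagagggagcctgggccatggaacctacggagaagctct
Lhx8: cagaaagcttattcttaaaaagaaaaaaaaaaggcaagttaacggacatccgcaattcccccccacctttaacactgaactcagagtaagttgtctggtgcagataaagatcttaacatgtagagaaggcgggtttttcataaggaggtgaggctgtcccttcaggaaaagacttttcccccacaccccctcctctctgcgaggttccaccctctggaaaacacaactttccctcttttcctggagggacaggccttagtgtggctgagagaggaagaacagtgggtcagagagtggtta
An E-box is present in 72.3% of the 32851 promoters of the table. Its CACGTG form, which is counted among the CANNTG matches, is present in 7.15% of them and 3 times in the promoter of Sohlh1, and in none of the other members' promoters in the table. TAATTA and TAATTG, letters bound by NOBOX (5.29% and 8% of promoters), had 0 matches on either strand in the members' promoters. A match, or the lack of one, describes letters in this window and says nothing of binding. Any part of E-boxes in the stage changes was not tested.

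Foxo3 (Entrez gene 56484, chromosome 10, 42181845 to 42276695) encodes the forkhead factor that restrains follicle activation. It measured 99.98, 178, 116 and 112 CPM in GV WT and 177, 124, 101 and 92.4 CPM in GV CKO. In ovulated oocytes the level was 551, 637 and 349 CPM in WT and 480.4, 376 and 388 CPM in CKO. Every ovulated library lay above every GV library, and the genotypes overlapped at both stages. Foxo3 rose by 2.02 on the log2 scale in WT (SE 0.29, adjusted p = 9.75e-06 with edgeR) and by 1.74 in CKO (SE 0.29, adjusted p = 8.06e-05). The difference between CKO and WT was -0.03 (SE 0.26, adjusted p = 0.971) in GV oocytes and -0.27 (SE 0.26, adjusted p = 0.596) in ovulated oocytes.

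Foxo3 and Taf4b, the members with the longest transcripts (6711 and 6606 bases as implied by count and FPKM, against 1103 to 2122 for the other 5 with a value), were the 2 members that rose between stages. With each library's trend on gene length removed, Foxo3 rose by 0.99 (adjusted p = 0.000129 with edgeR) in WT and 0.96 in CKO, and Taf4b by 1.07 (adjusted p = 0.00232) in WT and 0.77 in CKO. Under the same setting Tbpl2 rose in WT by 1.65 (adjusted p = 0.000574), Sohlh2 by 1.14 (adjusted p = 0.00631), and Nobox fell by 2.88 and Lhx8 fell by 2.25. The order of the stage changes among the members therefore changed with the length setting, while the direction of the 4 called members did not.

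Tbpl2 (Entrez gene 227606, chromosome 2, 24071366 to 24096595), the oocyte relative of TBP, had no called difference in the fits as reported. With the length trend removed it was called higher after ovulation in WT (1.65, adjusted p = 0.000574 with edgeR). It measured 6.52, 13.8, 10.7 and 10.6 CPM in GV WT and 8.75, 15.1, 8.56 and 8.20 CPM in GV CKO. After ovulation it measured 12.1, 13.8 and 21.4 CPM in WT and 7.67, 4.95 and 12.7 CPM in CKO. Of the 3 ovulated CKO libraries 2 lay below all ovulated WT libraries, and the third overlapped them. The log2 fold change of CKO against WT was -0.06 (SE 0.27, adjusted p = 0.953 with edgeR) in GV oocytes. In ovulated oocytes it was -0.87 (SE 0.39, unadjusted p = 0.0389 and adjusted p = 0.187 with edgeR). From GV to ovulated the change was 0.60 (SE 0.35, adjusted p = 0.144) in WT and -0.26 (SE 0.36, adjusted p = 0.554) in CKO. The difference between stages in the CKO effect was -0.86 (SE 0.50, adjusted p = 0.440).

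Taf4b (Entrez gene 72504, chromosome 18, 14783201 to 14960424), the TFIID subunit enriched in germ cells, measured 5.52, 14.5, 9.43 and 7.44 CPM in GV WT and 30.9, 10.4, 8.51 and 11.4 CPM in GV CKO. After ovulation it measured 35.5, 45.2 and 33.0 CPM in WT and 54.1, 37.6 and 36.5 CPM in CKO. Every ovulated library lay above every GV library, the nearest being GV CKO replicate 1. Taf4b rose by 2.03 on the log2 scale in WT (SE 0.40, adjusted p = 0.000234 with edgeR) and by 1.48 in CKO (SE 0.39, adjusted p = 0.00425). The difference between CKO and WT was 0.75 (SE 0.44, adjusted p = 0.763) in GV oocytes and 0.21 (SE 0.27, adjusted p = 0.695) in ovulated oocytes. With the share of the top 100 genes as a covariate, which was 35.2% to 51.1% in GV and 25.0% to 35.4% in ovulated libraries, the stage differences of Taf4b did not pass (0.73, adjusted p = 0.166 in WT, and 0.16, adjusted p = 0.807 in CKO), nor did that of Foxo3 in CKO (0.78, adjusted p = 0.0763).

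Pou5f1 (Entrez gene 18999, chromosome 17, 35506032 to 35510777), which encodes the pluripotency factor OCT4, varied widely between GV libraries. It measured 27.7, 4.17, 17.2 and 23.6 CPM in GV WT and 2.61, 5.06, 10.8 and 17.1 CPM in GV CKO. In ovulated oocytes the level was 9.66, 6.13 and 12.4 CPM in WT and 4.64, 9.03 and 4.89 CPM in CKO. The groups overlapped in every comparison. The log2 fold change of CKO against WT was -1.06 (SE 0.61, adjusted p = 0.763 with edgeR) in GV oocytes and -0.58 (SE 0.40, adjusted p = 0.420) in ovulated oocytes, and from GV to ovulated it was -0.95 (SE 0.58, adjusted p = 0.155) in WT and -0.52 (SE 0.57, adjusted p = 0.466) in CKO.

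**Figure D4:**
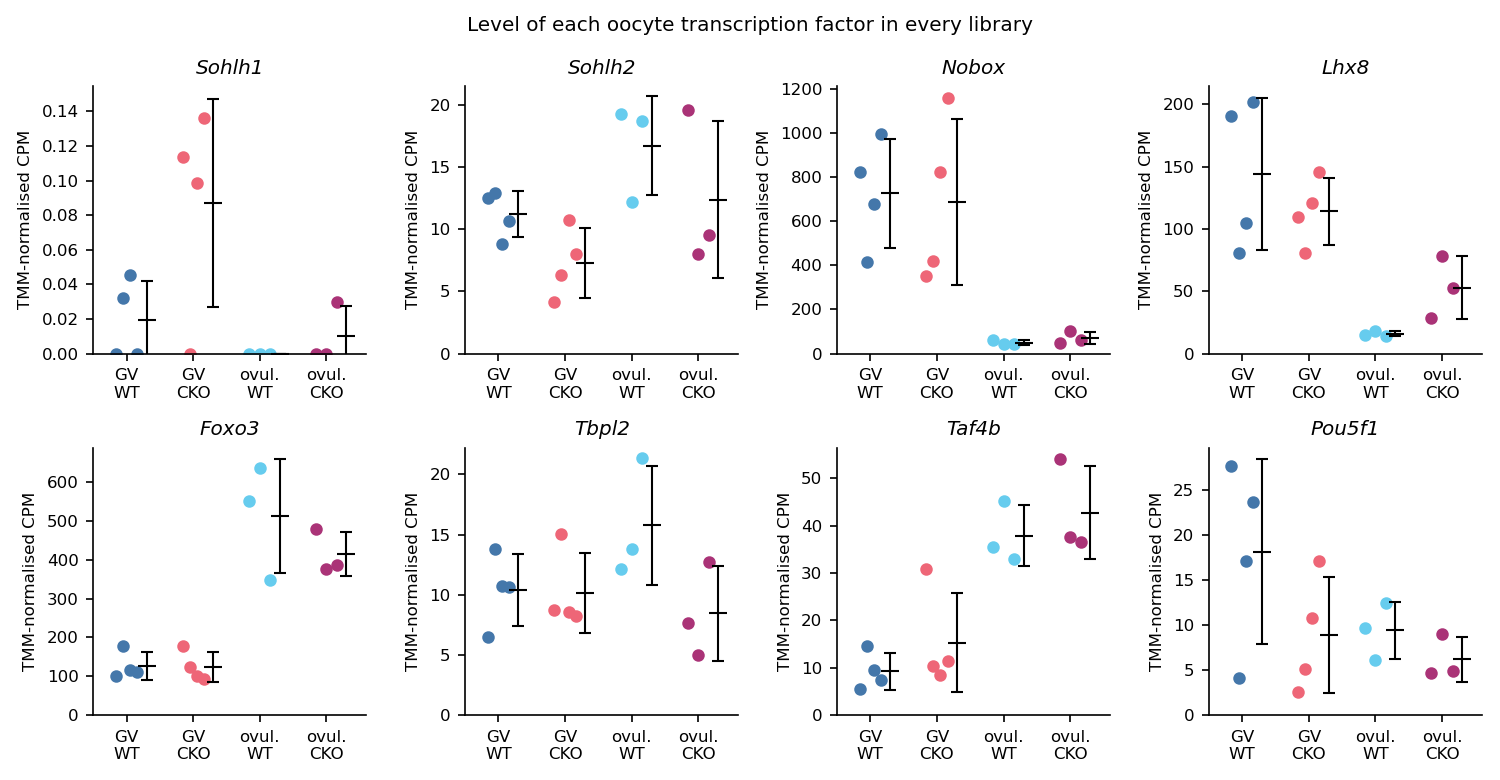
TMM-normalised CPM of the 8 members in each of the 14 libraries. Coloured points are libraries in replicate order within each group, and the black bar and whiskers beside them are the group's mean and SD. Nobox and Lhx8 are lower and Foxo3 and Taf4b higher in the ovulated groups, and the ovulated CKO libraries of Lhx8 (28.1 to 78.3 CPM) lie above the ovulated WT libraries (14.3 to 18.1 CPM).

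The GV libraries that stood apart in composition did not overlap the others in the level of 3 of the 7 tested members. The same held for 26.3% of 12270 genes tested in GV oocytes, so such a split is common and is not particular to the members. In the 3 GV libraries with a smaller share of counts in the top 100 genes, Nobox measured 351 to 421 CPM against 678 to 1159 CPM in the other 5. Pou5f1 measured 2.61 to 5.06 CPM against 10.8 to 27.7 CPM, and Foxo3 124 to 178 CPM against 92.4 to 116 CPM. These ranges did not overlap, while those of Lhx8, Sohlh2, Tbpl2 and Taf4b did. The 3 libraries held 1 WT and 2 CKO samples, and the cause of their composition was not tested.

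Without these 3 libraries, Pou5f1 was called lower after ovulation in both genotypes, by -1.29 in WT (adjusted p = 0.00374 with edgeR) and -1.18 in CKO (adjusted p = 0.0152). Leaving out GV WT replicate 2 alone gave -1.28 in WT (adjusted p = 0.0331). With the share of the top 100 genes as a covariate instead, the direction turned, to 1.48 in WT (adjusted p = 0.112) and 2.43 in CKO (adjusted p = 0.04896, called higher), and with the length trend removed it was 0.49 in WT and 0.64 in CKO, not called. The direction of Pou5f1 between stages thus depends on the setting. The top-100 share was 35.2% to 51.1% in GV and 25.0% to 35.4% in ovulated libraries. It nearly separates the stages, so the fit with this covariate cannot settle a stage difference. Without the 3 libraries the GV difference between genotypes of Pou5f1 was -0.73 (adjusted p = 0.254), and again 0 of the 7 members were called in GV oocytes, while the number of called genes rose from 2 to 63.

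**Figure D5:**
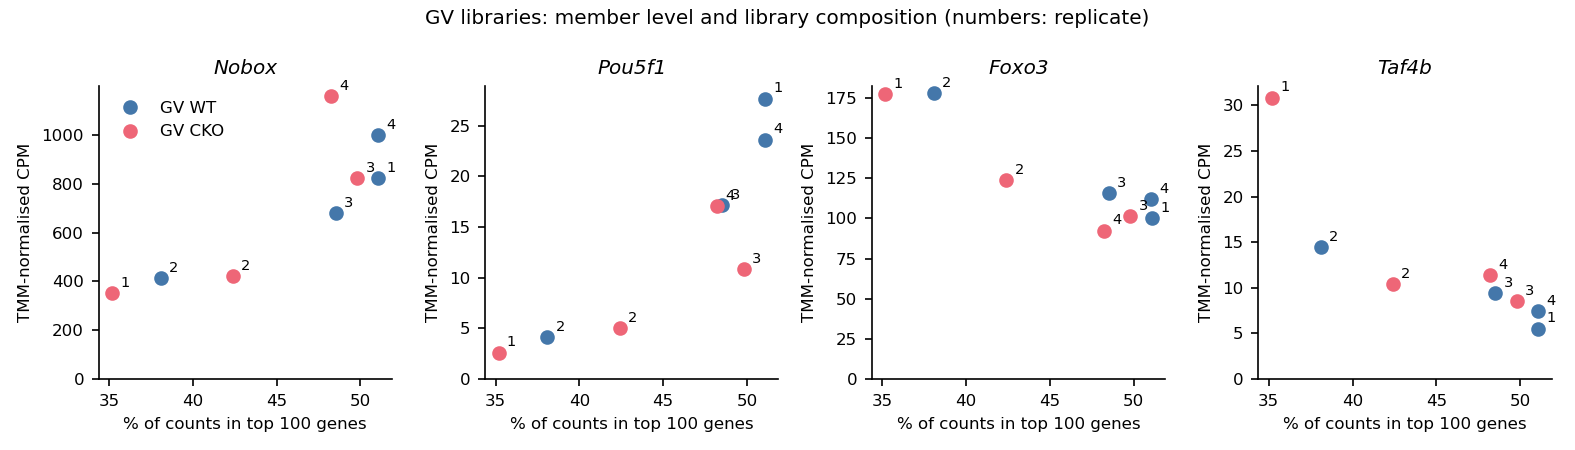
Level of Nobox, Pou5f1, Foxo3 and Taf4b (TMM-normalised CPM) in the 8 GV libraries against the percentage of each library's counts in its 100 most abundant genes. Blue points are WT, red points are CKO, and the numbers give the replicate. The 3 libraries at 35.2% to 42.4% have the lowest Nobox and Pou5f1 and the highest Foxo3.

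SMART-Seq protocols start the first cDNA strand at the poly(A) tail, so that the transcript end is where these measurements begin. For that reason the poly(A) signals of 5 members are shown, each within a 30-base window of the longest protein-coding transcript of GENCODE M21 (GRCm38), 5′ to 3′ as DNA of the coding strand, with AATAAA or ATTAAA in capitals. Nobox lies at chr6:43303699-43303728 (minus strand), Lhx8 at chr3:154306299-154306328 (minus), Foxo3 at chr10:42181848-42181877 (minus), Sohlh2 at chr3:55209921-55209950 (plus) and Pou5f1 at chr17:35510738-35510767 (plus).
Nobox: cagtgcatgcAATAAATAAAacagtaacta
Lhx8: tcctaagttcATTAAAcactttgcatcctt
Foxo3: gacgcatgtaAATAAAgctttggtgacact
Sohlh2: tgttttgtttAATAAAatgttttctctttt
Pou5f1: tttgttcttaAATAAAgactgggacacaca
Nobox has 2 overlapping signals, Lhx8 has the ATTAAA form, and Foxo3, Sohlh2 and Pou5f1 have 1 AATAAA each. The search covered the last 50 bases of each transcript, where Sohlh1 has 1 signal and Taf4b and Tbpl2 have 0. The Taf4b transcript searched has 5149 bases, against 6606 implied by count and FPKM, so its end may not be the one measured. One of these signals is present in the last 50 bases of 72.2% of 21901 transcripts. TTTTAT, a form of the cytoplasmic polyadenylation element that lengthens tails of stored messages, is present in the last 100 bases of 12.9% of transcripts, 2 times in Sohlh2 and 0 times in the other members. Tail length may affect how much of a message is measured, and its part in the stage differences was not tested.

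Genes known to depend on NOBOX, LHX8, SOHLH1, SOHLH2 or FIGLA fell more often than they rose between stages. Of 24 such genes tested, 2 were called higher and 13 lower from GV to ovulated in WT, where 30.3% of all genes were called higher and 36.2% lower. The 15 calls are near the background of 66.4% in total, and the median log2 fold change was -0.96 against -0.17 over all genes. The largest calls by p were the zona pellucida genes Zp3 (-4.51) and Zp2 (-5.15) and Figla (-5.30), the helix-loop-helix activator of the zona genes, while Jag1 (2.18), a Notch ligand, and Kit (1.61), the receptor of KIT ligand, rose. In CKO 3 were called higher and 11 lower, with a median of -0.72, where 23.2% of all genes were called higher and 31.2% lower and the median was -0.19. With the length trend removed the counts were 9 and 12 in WT and 7 and 9 in CKO.

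Between genotypes, 0 of these 24 genes were called in GV oocytes (median -0.22). In ovulated oocytes 7 were called higher and 0 lower in CKO, with a median of 0.46, where 6.44% of all genes were called higher and 1.4% lower and their median was 0.00. Zp2 rose by 2.33 (122.8 CPM in WT and 604 CPM in CKO), Figla by 4.06 (0.691 and 11.3 CPM) and Khdc3, a gene of the subcortical maternal complex, by 2.58 (18.1 and 106 CPM). Without ovulated WT replicate 3 and CKO replicate 2, 5 were called higher, and with the share of the top 100 genes as a covariate 2 were. The count was 9 with library totals alone and 6 with the length trend removed, with 0 called lower in both.

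The general transcription machinery around TBPL2 and TAF4B had more calls higher than lower after ovulation. Of 21 tested genes of the TBP family, TFIIA, TFIIB and TFIID, 12 were called higher and 3 lower from GV to ovulated in WT (median 0.94), and 11 and 4 in CKO (median 0.60). The share called was near that of all genes in WT (66.4%), with 30.3% of all genes higher and 36.2% lower, and in CKO 54.4% of all genes were called, 23.2% higher and 31.2% lower. Taf4 (2.92), the somatic counterpart of Taf4b, Tbpl1 (2.08), a further TBP relative, and Taf1 (2.19), the largest TFIID subunit, rose in WT, and Taf12 (-1.52), Tbp (-1.34) and Gtf2b (-1.09), which encodes TFIIB, fell. With the length trend removed 13 were higher and 0 lower in WT. Between genotypes 0 of the 21 were called at either stage by edgeR, and DESeq2 called 0 in GV and 1 (lower) in ovulated oocytes.

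Genes of the PI3K-AKT-mTOR pathway that controls FOXO3, and other FOXO genes, also had more calls higher than lower. In WT 18 of 29 tested were called higher and 5 lower (median 1.43), and in CKO 16 and 5 (median 1.12). Over all genes 66.4% were called in WT (30.3% higher, median -0.17) and 54.4% in CKO (23.2% higher, median -0.19). Akt1 (2.46), the kinase that phosphorylates FOXO3, Skp2 (1.69), a ubiquitin ligase subunit, and Pdpk1 (1.43), the kinase that activates AKT, rose in WT. Rps6 (-5.59), a ribosomal protein gene, Ywhah (-2.47), a 14-3-3 protein, and Pik3cd (-2.03), a PI3K catalytic subunit, fell. With the length trend removed 14 were higher and 8 lower in WT, with a median of 0.57, and with the share of the top 100 genes as a covariate 7 were higher and 5 lower. Between genotypes 0 of 27 were called in GV oocytes, and 1 of 28 was called in ovulated oocytes. That gene was the ribosomal protein gene Rps6, at 0.131 CPM in WT and 1.28 CPM in CKO. The ovulated WT level is close to the worth of 3 reads, and this gene has near-identical copies, so its stage and genotype differences are uncertain.

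Relatives and partners of the remaining members changed in both directions. Of 21 POU factors and pluripotency partners of POU5F1, 10 were called higher and 6 lower from GV to ovulated in WT (median 0.43), and 9 and 6 in CKO (median 0.27), against 66.4% and 54.4% of all genes called in either direction and medians of -0.17 and -0.19. Lin28a (2.53), an RNA-binding protein, and Stat3 (1.51) rose, and Dppa5a (-2.90), Dppa4 (-4.63) and Sox15 (-3.41) fell in WT. In ovulated CKO oocytes 3 of 21 were called higher and 0 lower, namely Dppa5a (2.43), Klf2 (2.00) and Dppa4 (2.38), where 6.44% of all genes were called higher, and without ovulated WT replicate 3 and CKO replicate 2 this was 1. In GV oocytes 0 of 19 were called by edgeR, and DESeq2 called 1.

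The last list held E-proteins, LIM-domain cofactors and homeobox relatives of the SOHLH proteins, LHX8 and NOBOX, and others such as Gata4 and Id1. Of its 19 tested genes, 10 were called higher and 3 lower in WT (median 1.05), and 7 and 1 in CKO (median 0.48). Again 66.4% and 54.4% of all genes were called, 30.3% and 23.2% higher. Lhx2 (2.73), a LIM-homeobox relative of Lhx8, Gata4 (2.13) and Rlim (1.12), which marks LIM cofactors for degradation, rose in WT. Figla (-5.30), Hhex (-1.32) and Id1 (-2.85) fell in WT. Id1 averaged 0.337 CPM in GV WT and 0.0414 CPM in ovulated WT, the latter below the worth of 3 reads. In ovulated oocytes 1 of 18 was higher (Figla, also in the first list) and 1 lower (Tcf4, -2.18, an E-protein) in CKO, and in GV oocytes 0 of 17 were called by edgeR and DESeq2. All 5 lists hold genes chosen with earlier results of these data known.

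As a description with no test, the 2 genes most like each member over the 14 libraries were found by Pearson r of log2(CPM + 0.5) among 7851 genes with a mean of at least 5 CPM, leaving out predicted and clone-named genes. Nobox was closest to Mpzl1 and Tuba1b (r = 0.994 each), and Lhx8 to Sh3gl1 (0.985) and Abhd12 (0.982). Foxo3 was closest to Rc3h1 (0.994) and Tnrc6b (0.993), and Taf4b to Smad4 (0.988) and Zfp91 (0.986). The likeness was lower for Pou5f1 (Rnf114, 0.936, and Cs, 0.924), Tbpl2 (Zfp81, 0.897, and Pdss1, 0.893) and Sohlh2 (Mfsd10, 0.894, and Fstl3, 0.880). The 14 points share the stage split and the library composition. Among the members themselves, r was 0.91 between Nobox and Lhx8, 0.93 between Foxo3 and Taf4b, and -0.97 between Nobox and Foxo3.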

How the data were processed

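Read counts and FPKM were deposited by the authors, 1 table of each per stage. Per the file headers the first hold read counts per gene, and since 17.6% (GV) and 18.3% (ovulated) of the nonzero values lie over 0.001 from a whole number, these are estimated counts without normalisation. The second hold FPKM per the file headers. The build was mm10, per the submitters' processing notes, with aligner and counter not given in the sources used here. Gene positions came from the RefSeq table of GRCm38.p6, which matched 18456 of 18507 identifiers. Estimated counts were rounded and tested with edgeR (version 4.0.16, under R version 4.3.3), using filterByExpr, TMM factors, a robust quasi-likelihood F test and Benjamini-Hochberg adjustment. CKO was compared with WT within each stage. The stages, and the difference between stages in the CKO effect, were compared in 1 fit of the 14 libraries over genes in both tables. SE was derived from the F statistic. Levels are TMM-normalised CPM, and marker sums use library totals. Within groups the 18 pairs of libraries differed by more than counting noise (chi-square per degree of freedom 20.3 to 336), so none was counted as 1 sample. The fits were also run on counts simulated from their own means and spread. Few genes were changed there and library composition did not shift, unlike in the stage comparisons, so those runs do not cover such shifts. Alternatives used limma 3.58.1 and DESeq2 1.42.0. The members, the gene lists and the rules were chosen with earlier results of these data known. Named were Mff, all members, up to 3 called genes of each list per direction by smallest p, and the 2 genes most like each member.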

Additional observations from a re-analysis of the deposited data

Results flagged for a closer look

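Among the 18 groups of 4 GV libraries checked (8 members and Mff in each genotype), 2 held a library far from the others by Dixon's criterion, which flags about 1 group in 20 by chance. Tbpl2 measured 15.1 CPM in GV CKO replicate 2, against 8.20 to 8.75 CPM in the other 3 GV CKO libraries. Taf4b measured 30.9 CPM in GV CKO replicate 1, against 8.51 to 11.4 CPM in the others. Both belong to the 3 GV libraries with a smaller share of counts in the top 100 genes, and the cause was not tested. The CKO effect on Lhx8 was called different between the stages. It was larger in ovulated than in GV oocytes by 2.08 on the log2 scale (adjusted p = 0.0289, edgeR's quasi-likelihood test). This call was kept in 17 alternatives and lost in 8. Lhx8 was higher in 3 of 3 ovulated CKO libraries than in any ovulated WT library, where 28.5% of all tested genes did not overlap. The GV groups of Lhx8 overlapped.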

How the results depend on the processing

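Of 704 values of members' log2 fold changes under alternatives, 631 kept direction and side of the threshold, 18 lost a call, 18 gained one and 37 changed sign, the last all for values not called as reported. Calls lost were those of Lhx8 (15 values), of Taf4b between stages (2) and of Foxo3 between stages in CKO (1), given with the results. Leaving out the libraries that stand apart and the composition covariate (top-100 share) were chosen after seeing the data. The cause of the shifts below was not tested.

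Called genes, GV (2 as reported): 4 with no filter, 55 DESeq2, 114 voom, 4 length trend removed, 4 with all groups in 1 fit, 63 without the 3 GV libraries, 13 composition covariate, 2 to 5 leaving out 1 library. Ovulated (942): 506 at a mean of at least 10 CPM, 1564 DESeq2, 1953 voom, 182 unfiltered log2(FPKM + 0.1), 1595 with all groups, 235 without WT 3 and CKO 2, 140 covariate, 341 to 1652 leaving out 1 library; members called were 0 with unfiltered FPKM, without WT 3 and CKO 2, and with the covariate. Stages: 5155 (WT) and 4458 (CKO) at 10 CPM, and 3689 (CKO) with the covariate. Difference of the CKO effect (430): 236 library totals, 883 DESeq2, 660 voom, 229 without the 3 GV libraries, 157 without WT 3 and CKO 2 (0 members), 129 to 1006 leaving out 1 library (0 to 1 members). Of ovulated calls 82.2% were higher in CKO, 67.4% with the length trend removed and 92.8% with library totals; of CKO stage calls 42.6% and 61.3% with library totals.

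Sign changes in GV: Nobox 0.028 (totals), 0.23 (without the 3), 0.16 (covariate), -0.48 to 0.12 leaving out 1 library; Foxo3 0.10 (totals), 0.088, 0.084 and 0.088 (FPKM with 0.1, 1 and unfiltered), -0.30 to 0.19; Tbpl2 0.018, 0.084, 0.064 and 0.084 in the same order, -0.27 to 0.11. Stage, WT: Pou5f1 0.49 (length), 1.48 (covariate). Stage, CKO: Tbpl2 0.21 (totals), 0.0017 (voom), 0.71 (length), 0.087 (without WT 3 and CKO 2), -0.69 to 0.0024; Pou5f1 0.18 (totals), 0.64 (length), 2.43 (covariate, adjusted p = 0.04896 with edgeR), -0.90 to 0.014. Difference of the CKO effect: Sohlh2 -0.34 (voom), -0.24 (without the 3), -0.30 to 0.44; Taf4b -0.87 to 0.044.

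The labels do not say whether equal replicate numbers pair libraries. Same-numbered deviations correlated at -0.435, 0.305, 0.0471 and 0.540 in GV and 0.142, 0.0344 and 0.319 in ovulated oocytes. Other-numbered ones correlated at -0.687 to 0.655 in GV and -0.362 to 0.154 in ovulated oocytes. These few values cannot decide whether the numbers pair libraries. With the replicate number as a block, called genes were 2 in GV, 1630 in ovulated and 262 for the difference of the CKO effect; for the stage contrasts the block could not be fitted, since numbers lie within stages. By median FPKM the order changed only between members with overlapping ranges. Pou5f1 stood above Foxo3 in GV WT, and Tbpl2 above Pou5f1 in GV CKO (5.87 against 5.68 FPKM). In ovulated WT Pou5f1 stood above Lhx8 (10.2 against 10.1 FPKM). In ovulated CKO Tbpl2 (6.30), Sohlh2 (5.54) and Pou5f1 (5.41 FPKM) followed each other, the reverse of their order by mean. Sohlh1 had too few reads to pass the filter and was not tested.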
